A study of Mus musculus with 12 samples.

Results

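Genes of retinoic acid metabolism and reception were described in germ cells of synchronised mouse testes with and without Zfp541. They were the 10 of 55450 listed genes whose symbols were Dhrs3, Rdh10, Rdh11, Aldh1a1, Aldh1a2, Cyp26b1, Rara, Rarg, Rxra and Rxrb. These genes were chosen by name, with earlier results of these data known, and all 10 passed the filter on low counts. The 4 groups, with 3 libraries each, all came from C57BL/6 testis: Zfp541 knockout (KO) at 360 h, wild type (WT) at 360 h, KO at 260 h and WT at 260 h after retinoic acid. All mice had been fed WIN 18,446 from 2 days after birth for 7 days and had then been injected with retinoic acid, so that controls had the same drug and a retinoic acid injection as knockouts had. The labels call the 360 h cells late pachytene and the 260 h cells early pachytene spermatocytes, that is, cells of meiotic prophase with fully paired chromosomes. The labels do not say which part of Zfp541 was deleted or how many mice went into a library. WIN 18,446 blocks the enzymes that make retinoic acid.

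Retinoic acid is made from retinol (vitamin A) in a pair of oxidations, first to retinaldehyde by retinol dehydrogenases and then to retinoic acid by retinaldehyde dehydrogenases. It is broken down by CYP26 enzymes, and it acts through heterodimers of retinoic acid receptors (RAR) and retinoid X receptors (RXR) that bind DNA at repeated short motifs. In the testis it is known as the signal for spermatogonial differentiation and entry into meiosis. Germ cells and the somatic cells around them both hold parts of the pathway, with Sertoli, Leydig and peritubular cells among the somatic sources.

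Single cells had been picked by mouth pipette, and their UMIs, random tags that let copies of 1 cDNA molecule be counted once, were read at transcript 3′ ends. The authors kept 929 cells, 50 to 94 per library, in 5 k-means clusters and 3 classes, and libraries held 3601518 to 27202665 gene UMIs. Cells of 1 library are not replicates, so UMIs were summed per library and tested across libraries. Their p-values measure the spread between libraries, which may be technical. In such sums more cells with a transcript and more RNA per cell cannot be told apart, so shares of cells are given beside the results they touch. Library makeup differed between the groups. Late pachytene cluster 4 held 220 KO cells at 360 h and 2 WT cells at 260 h, and late pachytene cluster 5 held 267 WT cells at 360 h and 1 WT cell at 260 h. At 260 h the early pachytene cells of all 3 KO libraries and 72 of WT library 3 were in cluster 3, whereas the 25 and 56 of WT libraries 1 and 2 were in cluster 2, with 1 more of library 2 in cluster 3. Pre-meiotic cells (cluster 1) numbered 0, 9 and 10 in the KO libraries and 2, 2 and 1 in the WT libraries at 360 h, and 23, 20 and 18 in KO and 24, 11 and 17 in WT at 260 h. The 10 pachytene markers summed to 4607 to 6136 CPM in KO and 5960.4 to 9442 CPM in WT at 360 h, and to 1430.4 to 1968 CPM in KO and 2346 to 4159 CPM in WT at 260 h. The 8 spermatid markers summed to 4.08 to 5.94 CPM in KO and 19.0, 22.0 and 238 CPM in WT libraries 1, 2 and 3 at 360 h, so that WT library 3 stood apart. CPM here means UMIs scaled by library total and TMM factor, unless "unscaled" (library total alone) is written. Zfp541 itself was counted in all libraries of both genotypes, and its 3′ count checks nothing about the deletion.

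Promoter letters are shown for 3 of the 5 members called between the genotypes at 360 h, because RAR and RXR dimers bind pairs of motifs such as AGGTCA. Each run is the 250 bases before a RefSeq start (GRCm38.p6), 5′ to 3′ on the gene's own strand, and overlaps no annotated GENCODE exon. Capitals mark AGGTCA or its reverse complement, TGACCT. The Dhrs3 run is chr4:144892577-144892826 (plus strand), upstream of the first exon, and holds no such motif. The Rdh11 run is chr12:79190962-79191211 (minus strand), before a start that lies inside the gene's span. The Rarg run is chr15:102257523-102257772 (minus strand), upstream of the gene.
Dhrs3: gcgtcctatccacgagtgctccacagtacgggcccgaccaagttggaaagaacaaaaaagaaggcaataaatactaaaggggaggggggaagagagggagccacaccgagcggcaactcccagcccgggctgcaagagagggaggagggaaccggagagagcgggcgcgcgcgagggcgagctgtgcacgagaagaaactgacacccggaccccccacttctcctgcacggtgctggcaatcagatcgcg
Rdh11: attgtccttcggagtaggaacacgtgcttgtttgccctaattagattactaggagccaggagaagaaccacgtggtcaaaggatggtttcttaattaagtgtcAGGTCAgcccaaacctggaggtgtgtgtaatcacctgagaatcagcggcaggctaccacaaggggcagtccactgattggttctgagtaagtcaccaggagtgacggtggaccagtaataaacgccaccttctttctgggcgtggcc
Rarg: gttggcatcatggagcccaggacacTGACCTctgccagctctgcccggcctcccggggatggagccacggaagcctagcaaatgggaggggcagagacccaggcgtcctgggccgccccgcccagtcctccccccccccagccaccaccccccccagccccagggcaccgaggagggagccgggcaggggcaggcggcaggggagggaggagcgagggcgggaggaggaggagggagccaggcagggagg
RefSeq starts were matched for 9 of the 10 members, all but Rdh10, in 19 windows. Searched on both strands, AGGTCA or AGTTCA occurred in 4 of these windows, of the 4 genes Rdh11, Rara, Rarg and Rxra. The Rxra window among them, chr2:27709042-27709291 (plus strand), held AGGTCA 2 times and is not shown. Either motif occurred in 24.2% of all 32851 windows of the same length, AGGTCA in 14.0% and AGTTCA in 11.8%. Direct repeats of these motifs spaced by 5 bases or by 2 bases occurred in 0 of the 19 windows, and in 0.0335% and 0.0365% of all windows. A match is letters in a window only, and the 4 genes were Rarg and Rxra, which rose in KO at 360 h, Rdh11, which fell, and Rara, which was not called.

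At 360 h, KO libraries held more Dhrs3, Rdh10, Rarg and Rxra and less Rdh11 than WT libraries. Dhrs3, the enzyme that turns retinaldehyde back into retinol, differed most, with a log2 fold change of 6.00 ± 0.82 (SE). The other 5 members did not pass the test. In all, 5 of 10 members were called (4 higher, 1 lower; edgeR quasi-likelihood test, Benjamini-Hochberg adjusted p under 0.05 over 20279 genes), against 22.5% of all genes tested (8.93% higher, 13.5% lower). The median log2 fold change over the 10 members was 1.21, and over all genes 0.03. The 3 KO and 3 WT libraries did not overlap for the same 5 members, KO being above WT for 4 and below for 1, against 19.6% of all genes above and 24.6% below. The list was chosen with earlier results of these data known, so these shares and medians describe it and do not test it. With ERCC spike-in scaling, which moved the median of all genes to -0.48, 637 genes were called higher and 3091 lower, against 1811 higher and 2743 lower with TMM, and 3 members were called.

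At 260 h, 0 of 10 members were called between KO and WT by edgeR, DESeq2 or limma-voom, and 0 had an unadjusted p under 0.05 in edgeR. All genes tested were called at 1.89% (0.582% higher, 1.31% lower). Member log2 fold changes lay between -0.83 and 0.61, the lowest adjusted p was 0.483, and KO and WT overlapped for all 10, where 7.25% of all genes had KO above WT and 7.34% below without overlap. The test of the difference between the genotype effects (360 h minus 260 h) called Dhrs3 alone (6.75 ± 1.06, adjusted p = 0.00312, edgeR), against 5.08% of all genes (2.3% higher, 2.78% lower). For 5 other members that difference had an unadjusted p under 0.05 and missed the adjusted threshold: Rdh10 at 1.88 ± 0.70, Rdh11 at -1.41 ± 0.42, Aldh1a1 at 2.11 ± 0.97, Rarg at 2.29 ± 0.77 and Rxra at 1.87 ± 0.67. So a change of the genotype effect with time is shown for Dhrs3 and not for the other members called at 360 h.

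**Figure D1:**
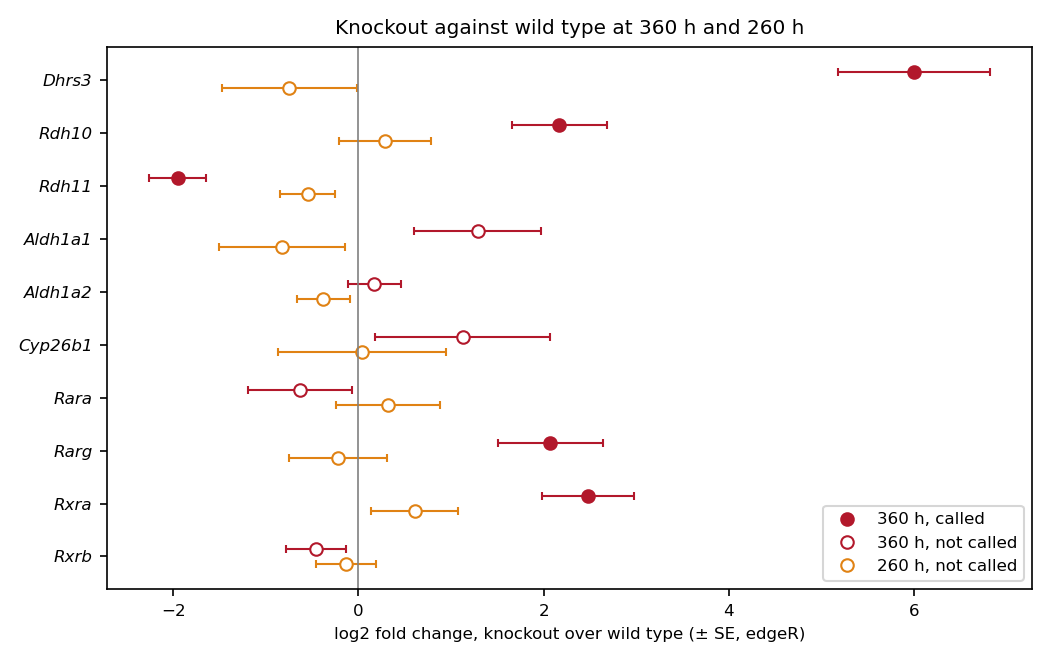
Log2 fold change of each member, KO over WT (horizontal axis, ± SE from edgeR), at 360 h (red) and at 260 h (orange); filled points were called at an adjusted p under 0.05 and open points were not. Dhrs3 at 360 h sits at 6.00, Rdh10, Rarg and Rxra lie between 2.07 and 2.48, Rdh11 is at -1.95, and all 260 h points are open.

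Between the times, 3 of 10 members were called in KO, all higher at 360 h than at 260 h, against 23.5% of all genes (13.3% higher, 10.2% lower). In WT 6 of 10 were called, 2 higher and 4 lower, against 39.9% of all genes (20.9% higher, 18.9% lower). Without overlap between times, 4 members were above and 3 below in KO, against 22.9% and 23.1% of all genes, and 2 were above and 2 below in WT, against 26.4% and 24.2%. Rdh11 and Aldh1a2 rose at 360 h in both genotypes, and Dhrs3 rose in KO. Aldh1a1, Cyp26b1, Rarg and Rxra fell at 360 h in WT. The genotype and time comparisons share libraries, so their values stand side by side and are not independent of each other.

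**Figure D2:**
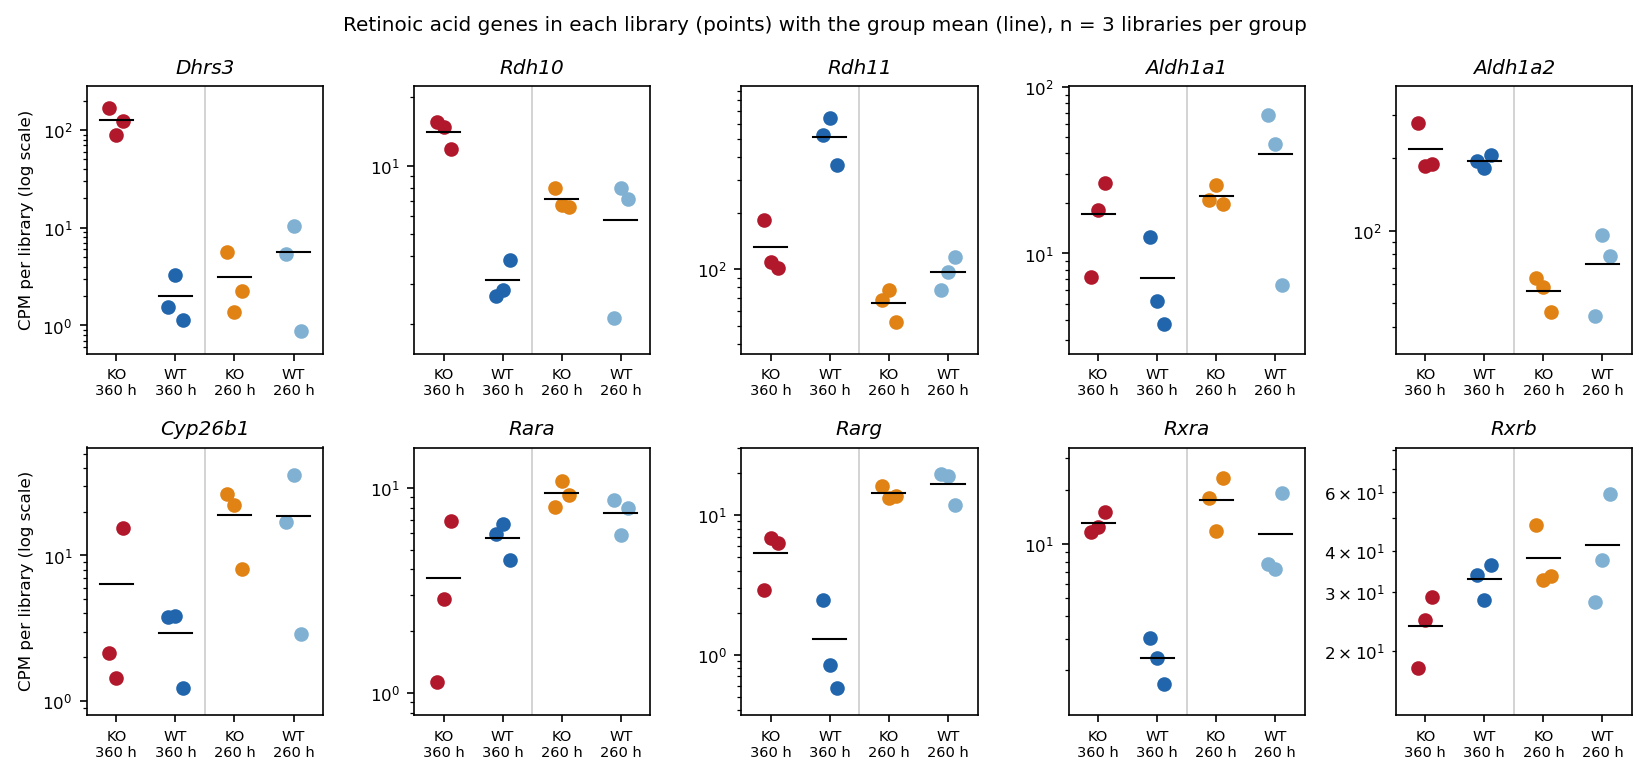
CPM of each member in each library (points; log scale, vertical axis set per gene) with the mean of the 3 libraries of a group (line), for KO and WT at 360 h and KO and WT at 260 h from left to right. The 3 Dhrs3 values of KO at 360 h lie between 89.3 and 167 CPM, and the other 9 libraries are at 10.5 CPM or below.

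Dhrs3 (ENSMUSG00000066026.14; mm10 chr4:144892827-144928209, plus strand) is known in other tissues as a gene that retinoic acid induces, and its product lowers the supply of retinaldehyde. At 360 h Dhrs3 had 167, 89.3 and 123 CPM in the KO libraries (1325, 871 and 1352 UMIs), against 1.56, 3.30 and 1.15 CPM in the WT libraries (17, 35 and 26 UMIs). The 260 h values were 5.69, 1.37 and 2.26 CPM in KO, against 5.44, 10.5 and 0.874 CPM in WT. KO at 360 h thus stood alone, and the other 3 groups overlapped one another. For KO over WT the log2 fold change was 6.00 ± 0.82 at 360 h (adjusted p = 0.000195) and -0.75 ± 0.73 at 260 h, where adjusted p was 0.759. It was 5.29 ± 0.79 for 360 h over 260 h in KO (adjusted p = 0.000479) and -1.46 ± 0.73 in WT (adjusted p = 0.130; edgeR throughout). The KO over WT call at 360 h held in 16 of 16 alternative settings, late pachytene cells alone included, with values of 5.61 to 6.48. The sign at 260 h turned without WT library 2 (0.13), with limma-voom (0.04) and with library 3 as the only WT library at 260 h (1.76, a setting chosen after seeing the data), with no call in any of these.

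In single cells of KO at 360 h, Dhrs3 was not confined to a few. At least 1 Dhrs3 UMI was found in 219 of 220 late pachytene KO cells (median 13.5 UMIs per cell), against 49 of 267 late pachytene WT cells (median 0). After each cell was thinned to 40000 gene UMIs, to remove the difference in depth (median 107587.5 gene UMIs per KO cell and 176948 per WT cell), the shares were 95.9% in KO and 4.49% in WT. No cell was shallower than that depth. The 3 cells richest in Dhrs3 held 8.38% to 15.2% of its UMIs in each KO library at 360 h. The only WT cells of cluster 4, 2 cells of WT library 1 at 260 h, had 0 Dhrs3 UMIs among 71568 and 90953 gene UMIs.

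Dhrs3 was also counted in the other classes of the KO libraries at 360 h. All 19 pre-meiotic cells and all 7 early pachytene cells there had a Dhrs3 UMI, against 2 of 5 pre-meiotic WT cells at 360 h. In pre-meiotic cells the unscaled level was 46.9 and 95.5 CPM in KO libraries 2 and 3 at 360 h, below the 98.5 and 130.4 CPM of cluster 4 in the same libraries. In pre-meiotic cells at 260 h it was 1.75, 1.33 and 1.57 CPM in KO and 7.60, 23.4 and 1.81 CPM in WT. Pachytene markers were counted in these cells too: their unscaled sum in pre-meiotic cells was 2767 and 3155 CPM in KO libraries 2 and 3 and 3933, 4101 and 2585 CPM in WT (2, 2 and 1 cells) at 360 h, and 868, 649 and 623 CPM in KO and 916, 2641 and 1908 CPM in WT at 260 h. The part of transcripts shared between cells of a library in the pre-meiotic Dhrs3 values was not tested.

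**Figure D3:**
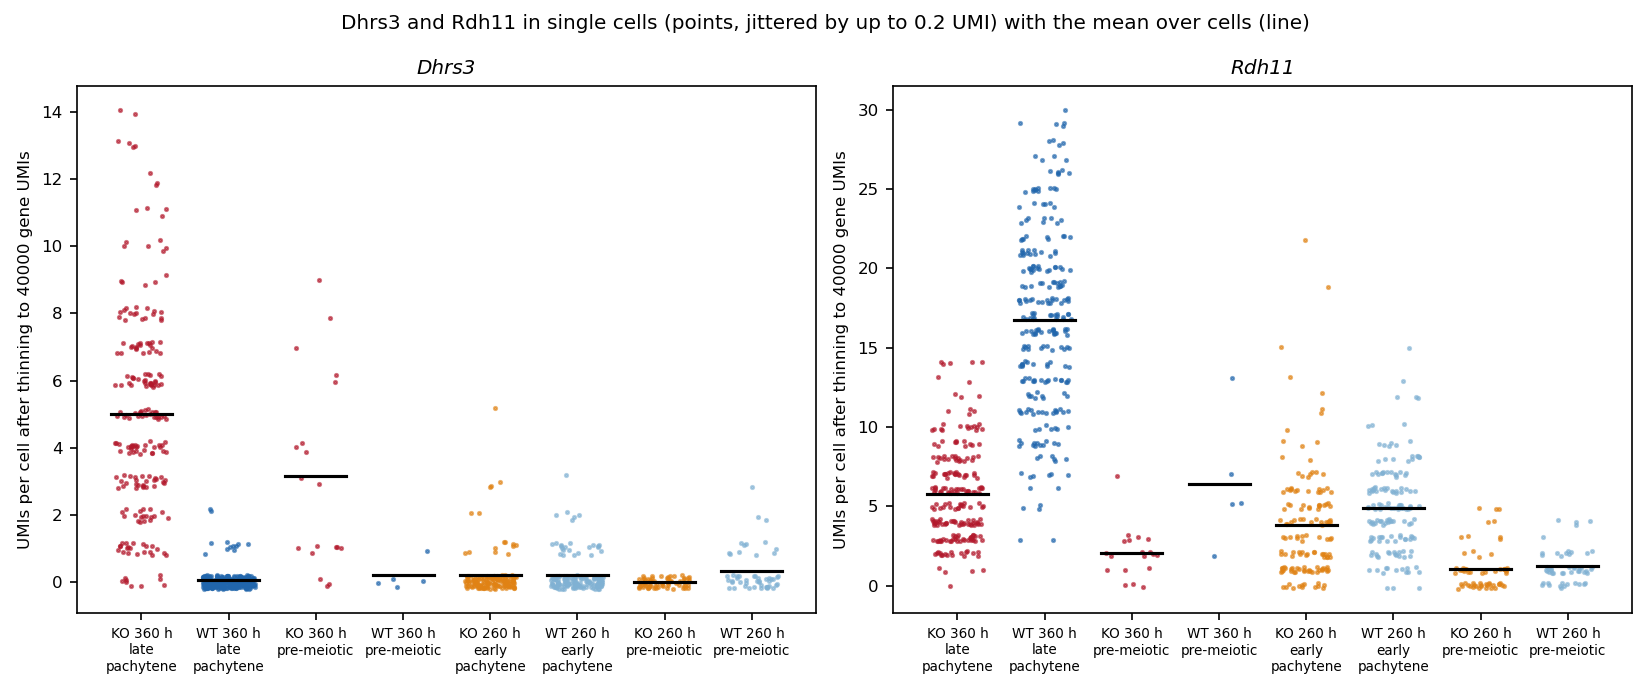
UMIs of Dhrs3 (left) and Rdh11 (right) per cell after thinning to 40000 gene UMIs (vertical axis), by group and class; points are cells and lines are means over cells, with no error drawn because cells are not replicates. Late pachytene KO cells averaged 5.00 Dhrs3 UMIs and WT cells 0.0524, and for Rdh11 the means were 5.81 in KO and 16.7 in WT.

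Rdh10 (mm10 chr1:16105774-16133734, plus strand) encodes the retinol dehydrogenase needed for embryonic retinoic acid synthesis, and its product is known to bind DHRS3. At 360 h Rdh10 had 15.6, 14.9 and 11.9 CPM in KO, against 2.66, 2.83 and 3.85 CPM in WT. At 260 h it had 7.99, 6.70 and 6.59 CPM in KO, against 2.13, 8.00 and 7.13 CPM in WT. The 3 KO libraries at 360 h were above every other library, and WT at 360 h was above only WT library 1 of the 260 h groups. KO over WT gave 2.17 ± 0.51 at 360 h with an adjusted p of 0.00614, and 0.29 ± 0.50 at 260 h with an adjusted p of 0.883. The time change was 0.99 ± 0.49 in KO (adjusted p = 0.160) and -0.89 ± 0.50 in WT (adjusted p = 0.166; edgeR), so neither was called. The 360 h call was lost when libraries were scaled to the ERCC spike-ins (1.58, adjusted p = 0.122), while it held in the other 15 of 16 alternatives. A Rdh10 UMI was found in 159 of 220 late pachytene KO cells and 73 of 267 WT cells at 360 h (43.2% in KO and 7.87% in WT after thinning).

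Rdh11 (mm10 chr12:79174337-79192293, minus strand) encodes an NADPH-dependent retinaldehyde reductase, best known from the retina. At 360 h Rdh11 had 184, 109.9 and 102 CPM in KO, against 520.4, 648 and 364 CPM in WT. The Rdh11 values at 260 h were 68.4, 78.0 and 52.3 CPM in KO, against 77.6, 96.6 and 116 CPM in WT. Rdh11 was highest in WT at 360 h and next in KO at 360 h, with no overlap between these groups. The lowest WT library at 360 h, library 3, was the one with the high spermatid marker sum. KO and WT at 260 h overlapped narrowly, and WT library 3 at 260 h (116 CPM) lay above 2 of the 3 KO libraries at 360 h. Rdh11 fell by 1.95 ± 0.31 on the log2 scale in KO relative to WT at 360 h (adjusted p = 0.000324), and the call held in 16 of 16 alternatives (-2.40 to -1.75). At 260 h the value was -0.55 ± 0.30 (adjusted p = 0.483). Relative to 260 h, Rdh11 rose at 360 h by 0.99 ± 0.30 in KO (adjusted p = 0.0261) and by 2.40 ± 0.31 in WT (adjusted p = 4.45e-05; edgeR).

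The call of the Rdh11 rise was lost under 5 of 15 alternatives in KO and held in 16 of 16 in WT. The alternatives that lost it in KO were ERCC scaling (1.20, adjusted p = 0.074), leaving out KO library 1 at 360 h (0.67, adjusted p = 0.148), leaving out KO library 1 (1.11, adjusted p = 0.059) or 3 (0.90, adjusted p = 0.069) at 260 h, and leaving out pre-meiotic cells (0.58, adjusted p = 0.135). Every late pachytene cell of both genotypes at 360 h had a Rdh11 UMI, with a median of 15 UMIs per KO cell and 72 per WT cell. After thinning, the mean was 5.81 UMIs in KO and 16.7 in WT, so the genotypes differed in the level per cell and not in the share of cells with the transcript.

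Aldh1a2 (mm10 chr9:71215789-71296243, plus strand) encodes the retinaldehyde dehydrogenase that late spermatocytes are known to express. At 360 h Aldh1a2 had 278, 185 and 188 CPM in KO, against 194, 181 and 205 CPM in WT. Values at 260 h were 63.6, 58.7 and 45.9 CPM in KO, against 44.2, 96.0 and 78.2 CPM in WT. All 6 libraries at 360 h were above all 6 at 260 h, and the genotypes overlapped at both times. Aldh1a2 rose at 360 h relative to 260 h by 1.95 ± 0.30 in KO (adjusted p = 0.000328) and by 1.40 ± 0.29 in WT (adjusted p = 0.00156), in all 15 and 16 alternatives. The genotypes were not called apart, with 0.17 ± 0.29 for KO over WT at 360 h, where adjusted p was 0.708, and -0.38 ± 0.29 at 260 h, where it was 0.674 (edgeR). With ERCC scaling the 360 h value was -0.40 and without KO library 1 it was -0.12.

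Aldh1a1 (mm10 chr19:20492715-20643465, plus strand) encodes the retinaldehyde dehydrogenase known from Sertoli and Leydig cells. It has a close copy, Aldh1a7, which averaged 0.326 CPM in KO and 0.152 CPM in WT at 360 h, and the authors' counting may have divided reads between them. At 360 h Aldh1a1 had 7.19, 18.3 and 26.6 CPM in KO, against 12.6, 5.19 and 3.76 CPM in WT. At 260 h Aldh1a1 had 21.0, 25.9 and 20.0 CPM in KO, against 67.6, 45.4 and 6.48 CPM in WT. The genotypes overlapped at both times, and WT at 260 h spread more than any other group. For 360 h over 260 h, Aldh1a1 was at -0.36 ± 0.68 in KO (adjusted p = 0.745) and fell by 2.47 ± 0.71 in WT (adjusted p = 0.0134; edgeR). For genotype, KO over WT was 1.29 ± 0.69 at 360 h and -0.83 ± 0.68 at 260 h, with adjusted p of 0.201 and 0.702 in that order (edgeR).

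The fall of Aldh1a1 in WT rested on WT libraries 1 and 2 at 260 h. With library 3 as the only WT library at 260 h the change was 0.11 (adjusted p = 0.938). The call was also lost without WT library 1 at 260 h (-1.86, adjusted p = 0.061) and without WT library 2 (-2.19) or 3 (-2.13) at 360 h, and with limma-voom (-1.84, adjusted p = 0.069). Some Leydig markers moved with these libraries, and so did some macrophage markers and the peritubular and stromal marker sum. In WT libraries 1, 2 and 3 at 260 h, C1qa had 51, 90 and 1 UMIs and C1qb 62, 112 and 0. C1qc had 22, 76 and 0 UMIs there, Csf1r 13, 47 and 0, and Adgre1 5, 22 and 1. Ptprc (6, 3 and 4 UMIs), Hba-a1 (671, 0 and 89) and Hbb-bs (1259, 0 and 99) did not follow. The peritubular and stromal sum was 262, 214 and 38.2 CPM. The Sertoli marker sum did not follow, with 466, 282 and 345 CPM, library 3 being above library 2. The Leydig marker sum over 6 genes was 18.3 to 24.6 CPM in KO and 9.62 to 16.6 CPM in WT at 360 h, and 14.9 to 21.6 CPM in KO and 97.2, 58.7 and 20.7 CPM in WT libraries 1, 2 and 3 at 260 h. Of the 6, Hsd3b1 (22.5 and 10.3 CPM), Cyp17a1 (23.6 and 14.2 CPM) and Cyp11a1 (33.1 and 15.3 CPM) were high in WT libraries 1 and 2 at 260 h, against 0.364, 0 and 0.582 CPM in library 3. Star was not, with 17.0, 16.2 and 19.4 CPM in WT libraries 1, 2 and 3 at 260 h, and it made up most of the sum in library 3. Insl3 was at 0 in 10 of 12 libraries, all 3 WT libraries at 260 h included, and Cyp17a1 was at 0 in WT library 3 at 260 h and WT library 2 at 360 h, where Hsd3b1 was at 0 too. The part of Leydig, Sertoli, macrophage or stromal RNA in the Aldh1a1 result was not tested. Within WT library 1 at 260 h the 3 richest cells held 10.8% of the Aldh1a1 UMIs, so the transcript was spread over its cells.

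Cyp26b1 (mm10 chr6:84571414-84593908, minus strand) encodes an enzyme that oxidises and removes retinoic acid, known from peritubular and Sertoli cells. At 360 h Cyp26b1 had 2.14, 1.43 and 15.4 CPM in KO, against 3.76, 3.87 and 1.24 CPM in WT. Cyp26b1 at 260 h had 26.4, 22.2 and 8.03 CPM in KO, against 17.0, 35.7 and 2.91 CPM in WT. All groups but one pair overlapped: WT at 360 h lay below KO at 260 h. The genotype values were 1.12 ± 0.94 at 360 h and 0.04 ± 0.91 at 260 h, with adjusted p of 0.426 and 0.994 in that order (edgeR). Without KO library 3 the 360 h value was -0.68. For 360 h over 260 h, Cyp26b1 was at -1.57 ± 0.93 in KO (adjusted p = 0.245) and fell by 2.66 ± 0.98 in WT (adjusted p = 0.0440; edgeR). The WT call was lost under 11 of 16 alternatives. It was lost without WT library 1 (-2.72) or 2 (-1.75) at 260 h and without any single WT library at 360 h (-2.86, -2.82 and -2.25 for libraries 1, 2 and 3), and library 3 as the only WT library at 260 h gave -0.03.

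Peritubular and stromal markers moved in part with Cyp26b1 from library to library. Their sum over 10 genes was 32.8, 38.7 and 243 CPM in KO and 56.5, 98.8 and 32.9 CPM in WT at 360 h. At 260 h it was 245, 173 and 74.9 CPM in KO and 262, 214 and 38.2 CPM in WT. The KO library at 360 h with 15.4 CPM of Cyp26b1 was the one with the marker sum of 243 CPM, and the lowest library of each 260 h group in Cyp26b1 was also its lowest in the marker sum. Libraries 1 and 2 had the opposite order in Cyp26b1 and in this sum, in KO at 360 h and in WT at 260 h. The Sertoli marker sum was 105, 344 and 332 CPM in KO and 130.0, 123 and 75.9 CPM in WT at 360 h. At 260 h the Sertoli sum was 375, 403 and 447 CPM in KO, opposite in order to Cyp26b1, and 466, 282 and 345 CPM in WT. Of the 10 peritubular and stromal markers, Des was at 0 in WT library 1 at 260 h, and no other of these was at 0 in any library. The part of peritubular, stromal or Sertoli RNA in the Cyp26b1 result was not tested.

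**Figure D4:**
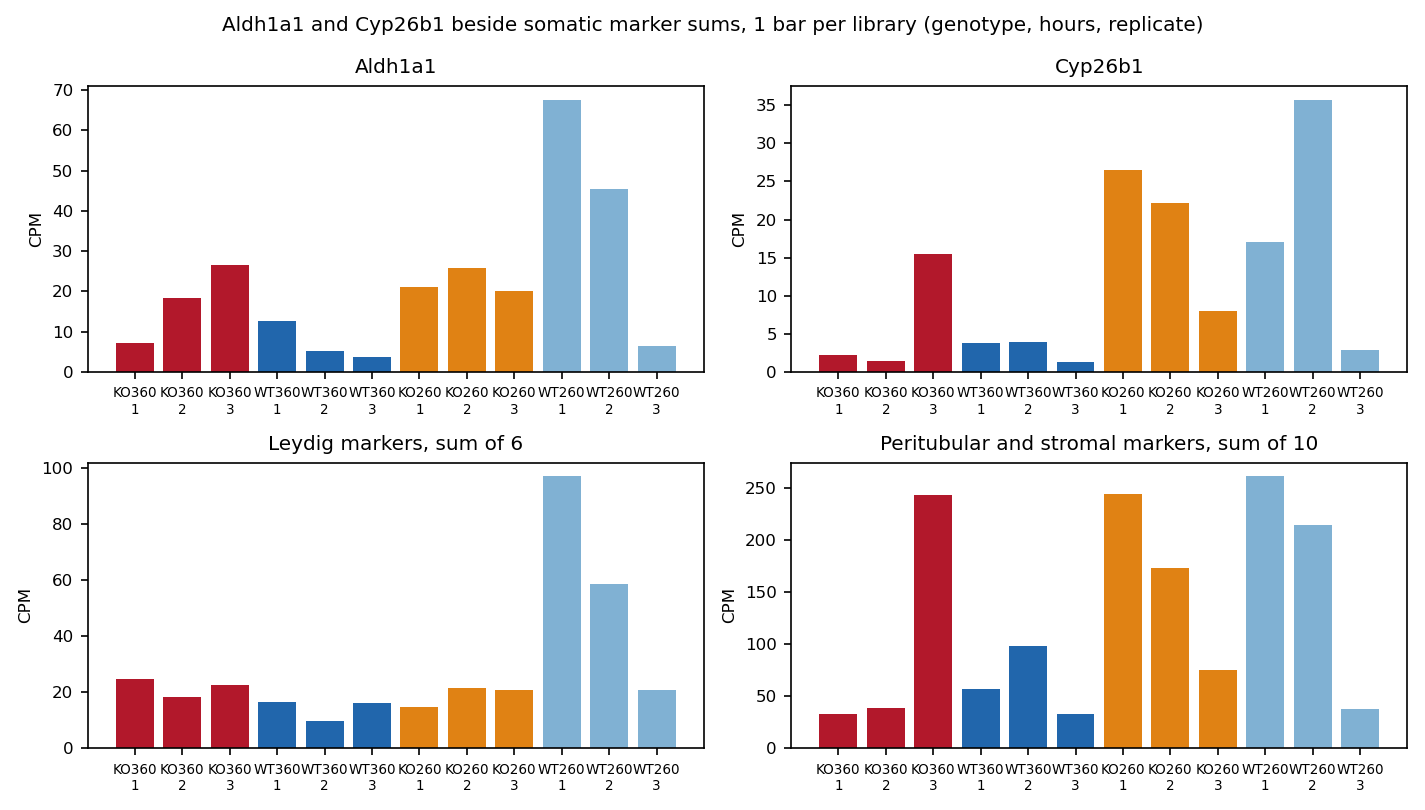
CPM of Aldh1a1 and Cyp26b1 (upper row) and the summed CPM of 6 Leydig markers and 10 peritubular and stromal markers (lower row), 1 bar per library, with no error drawn because each bar is 1 library. WT libraries 1 and 2 at 260 h are high for Aldh1a1 (67.6 and 45.4 CPM) and for Leydig markers (97.2 and 58.7 CPM), and KO library 3 at 360 h is high for Cyp26b1 (15.4 CPM) and for stromal markers (243 CPM).

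Rarg (mm10 chr15:102234938-102257517, minus strand) encodes RARγ, the receptor of differentiating spermatogonia. At 360 h Rarg had 2.90, 6.87 and 6.35 CPM in KO (23, 67 and 70 UMIs), against 2.47, 0.849 and 0.575 CPM in WT (27, 9 and 13 UMIs). At 260 h Rarg had 16.1, 13.3 and 13.8 CPM in KO, against 19.6, 19.0 and 11.8 CPM in WT. Both 260 h groups were above both 360 h groups, KO was above WT at 360 h, and KO library 1 (2.90 CPM) lay next to WT library 1 (2.47 CPM). Rarg was higher in KO by 2.07 ± 0.57 at 360 h with an adjusted p of 0.0158, and stood at -0.22 ± 0.53 at 260 h with an adjusted p of 0.921. Over time, 360 h against 260 h, Rarg was at -1.42 ± 0.54 in KO (adjusted p = 0.0690) and fell by 3.71 ± 0.60 in WT (adjusted p = 0.000229; edgeR).

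The WT fall of Rarg held in 16 of 16 alternatives, whereas the KO over WT call at 360 h was lost in 6 of 16. It was lost with ERCC scaling (1.67, adjusted p = 0.082), with thinned cells (1.81), and without WT library 2 (1.79), WT library 3 (1.68), KO library 2 (1.79) or KO library 3 (1.96). The KO libraries with more Rarg were those with pre-meiotic cells, 0, 9 and 10 in KO libraries 1, 2 and 3. In late pachytene cells alone, the unscaled level was 2.66, 4.93 and 4.86 CPM in KO (cluster 4), against 1.86, 0.275 and 0.480 CPM in WT (cluster 5). The 10 spermatogonia markers summed to 356, 569 and 580.2 CPM in KO and 303, 269.8 and 329 CPM in WT at 360 h. Id4 and Uchl1 made up most of this sum in each library, with 1452 and 1292 UMIs in KO library 1. That library had 0 to 31 UMIs of each other marker, fewer than any WT library, without scaling for depth. Among them, Dmrt1 had 31, 331 and 449 UMIs in KO and 160, 101 and 79 in WT. Sall4 had 16, 345 and 306 UMIs in KO and 153, 64 and 58 in WT. The Sertoli marker sum was 105, 344 and 332 CPM in KO and 130.0, 123 and 75.9 CPM in WT at 360 h, with Amh at 0 in KO library 3 and WT library 2. The Rarg call held without pre-meiotic cells and in late pachytene cells alone, a setting chosen after seeing the data. The part of Sertoli or pre-meiotic RNA in the Rarg result was not tested beyond these settings.

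Rxra (mm10 chr2:27676440-27762957, plus strand) encodes RXRα, a partner of the RARs and of other nuclear receptors. At 360 h Rxra had 11.7, 12.4 and 15.1 CPM in KO, against 3.02, 2.36 and 1.68 CPM in WT. Rxra at 260 h had 18.0, 11.8 and 23.1 CPM in KO, against 7.80, 7.29 and 19.1 CPM in WT. WT at 360 h was below all 9 other libraries, and KO at 360 h overlapped KO at 260 h. KO over WT was 2.48 ± 0.50 at 360 h (adjusted p = 0.00210), held in 16 of 16 alternatives (2.02 to 2.68), and 0.61 ± 0.47 at 260 h (adjusted p = 0.675). Over time, 360 h against 260 h, Rxra was at -0.43 ± 0.46 in KO (adjusted p = 0.543) and fell by 2.30 ± 0.49 in WT (adjusted p = 0.00196; edgeR), a call lost without pre-meiotic cells (-1.36, adjusted p = 0.062). KO library 1 at 360 h had no pre-meiotic cell and a Sertoli marker sum within the WT range, and it had 11.7 CPM of Rxra, 15.6 CPM of Rdh10 and 167 CPM of Dhrs3. Rarg in that library lay next to WT library 1, as given above. The part of Sertoli RNA in the Rxra, Rdh10 and Dhrs3 results was not tested. That of pre-meiotic RNA was not tested beyond leaving out pre-meiotic cells and taking late pachytene cells alone. Rxra had a UMI in 128 of 220 late pachytene KO cells and 48 of 267 WT cells at 360 h (34.1% in KO and 5.99% in WT after thinning).

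Rara and Rxrb, which encode RARα and RXRβ, were called in no comparison by edgeR with the settings used throughout. At 360 h Rara (mm10 chr11:98927818-98974942, plus strand) had 1.13, 2.87 and 6.89 CPM in KO, against 5.96, 6.70 and 4.42 CPM in WT. The Rara values at 260 h were 8.08, 10.8 and 9.27 CPM in KO, against 8.75, 5.87 and 7.93 CPM in WT. KO over WT was -0.63 ± 0.56 at 360 h (adjusted p = 0.453), and the highest KO library at 360 h was also above all 3 WT libraries. The 3 KO libraries at 360 h were below the 3 at 260 h, with -1.35 ± 0.57 (adjusted p = 0.0982; edgeR). That fall of Rara in KO was called in 4 of 15 alternatives, with DESeq2 (-1.31, adjusted p = 0.047), limma-voom (-1.60, adjusted p = 0.042), thinned cells (-1.75, adjusted p = 0.040) and without KO library 3 at 360 h (-2.12, adjusted p = 0.033). At 360 h Rxrb (mm10 chr17:34031812-34038399, plus strand) had 17.8, 24.8 and 29.0 CPM in KO, against 33.8, 28.4 and 36.2 CPM in WT. Those of Rxrb at 260 h were 47.7, 32.6 and 33.6 CPM in KO, against 28.1, 37.5 and 59.0 CPM in WT. The Rxrb groups overlapped between genotypes at both times, and KO over WT was -0.46 ± 0.33 at 360 h (adjusted p = 0.339; edgeR).

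By the authors' clusters, the receptors Rara, Rarg and Rxra were highest in pre-meiotic cells. Over the 8 libraries with at least 5 pre-meiotic cells, the median unscaled level was 21.1 CPM for Rara (8.73 to 27.5), 38.7 CPM for Rarg (21.6 to 64.4) and 33.8 CPM for Rxra (16.4 to 74.1). In cluster 2, early pachytene cells mostly of WT libraries 1 and 2 at 260 h, the medians over 3 libraries were 3.46 CPM for Rara, 7.29 CPM for Rarg and 3.45 CPM for Rxra. The third library there was KO library 2 at 360 h, with 5 cells and 1 UMI each of Rara, Rarg and Rxra. In cluster 3, the other early pachytene cluster, the medians over 4 libraries were 4.31 CPM for Rara, 7.07 CPM for Rarg and 10.7 CPM for Rxra. In cluster 4, the late pachytene cluster of KO, they were 2.28, 4.86 and 11.7 CPM over 3 libraries, and in cluster 5, that of WT, 4.20, 0.480 and 1.33 CPM in the same order of genes. The medians of Rarg thus stepped down with each class, whereas Rxra did not order the classes. In cluster 4 (10.8 to 13.6 CPM) it was within the range of cluster 3 (5.67 to 14.6 CPM) and above that of cluster 2 (2.24 to 3.46 CPM), and in cluster 5 (1.31 to 2.41 CPM) it was below cluster 3 and overlapped cluster 2. Clusters were drawn from the same cells and genes, so these levels are a description with no test.

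Rdh11 and Aldh1a2 ran the other way. Rdh11 had a median of 30.1 CPM in pre-meiotic cells (14.9 to 53.2), 125 CPM in cluster 2 (55.4 to 125) and 99.7 CPM in cluster 3 (94.8 to 136). It was at 122 CPM in cluster 4 (112 to 169) and 439 CPM in cluster 5 (303 to 469.9), so that cluster 4 stood with early pachytene and cluster 5 above both. Aldh1a2 had a median of 42.0 CPM in pre-meiotic cells (27.6 to 156), 107 CPM in cluster 2 (66.7 to 111), 78.5 CPM in cluster 3 (71.7 to 89.4), 201 CPM in cluster 4 (200.1 to 255) and 163 CPM in cluster 5 (131 to 170.2). Both late clusters were above both early clusters for Aldh1a2. In cluster 2 the lowest Rdh11 value and the median Aldh1a2 value came from the 5 cells of KO library 2 at 360 h. Rxrb changed less across clusters, with medians of 53.7 CPM in pre-meiotic cells, 28.6 and 46.6 CPM in clusters 2 and 3, 21.6 CPM in cluster 4 and 28.2 CPM in cluster 5. Rdh10 lay between 11.4 and 15.7 CPM in cluster 4 and between 1.99 and 3.14 CPM in cluster 5, with 6.71 to 10.7 CPM in cluster 3. Its range was 1.17 to 19.8 CPM in cluster 1 and 3.92 to 27.7 CPM in cluster 2, so both reached above cluster 4. Those highest values came from KO library 3 (10 cells) and KO library 2 (5 cells) at 360 h. Aldh1a1 and Cyp26b1 varied widely within clusters, from 8.13 to 78.9 CPM and from 1.09 to 47.2 CPM among the 8 libraries in cluster 1.

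**Figure D5:**
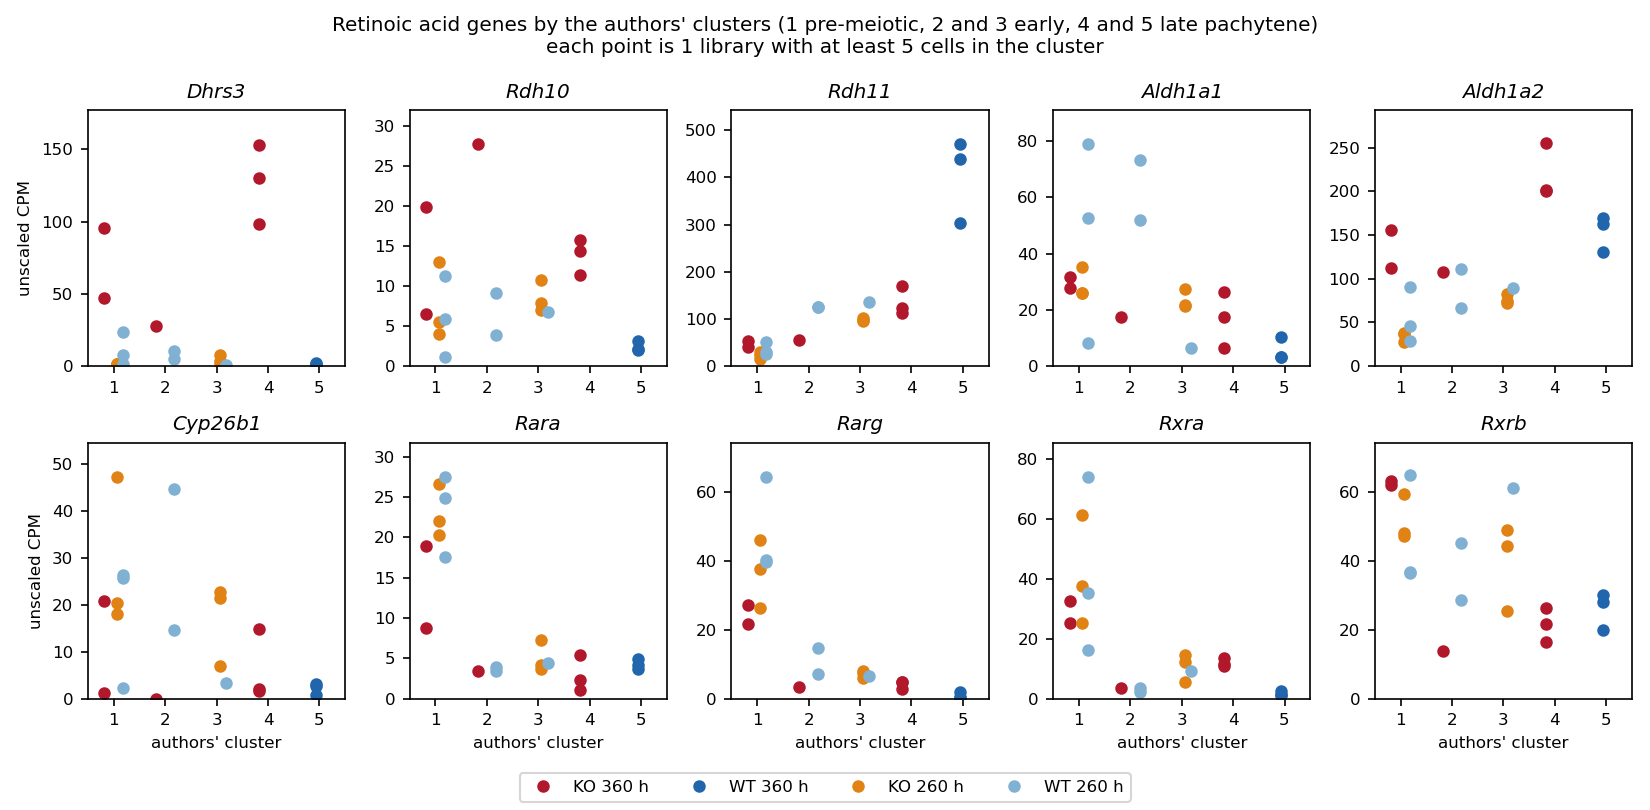
Unscaled CPM of each member (vertical axis, set per gene) in each of the authors' clusters (horizontal axis); a point is 1 library with at least 5 cells in that cluster, coloured by group. Dhrs3 is high in cluster 4 (98.5 to 153 CPM) and in KO libraries at 360 h within cluster 1, Rdh11 is high in cluster 5 (303 to 469.9 CPM), and Rara, Rarg and Rxra are high in cluster 1.

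For each called member, the 2 genes of mean level of at least 20 CPM with the highest Pearson correlation of log2 CPM over the 12 libraries were named. They were Vps53 and Terb2 for Dhrs3 (both 0.94), Msh5 (0.93) and Yars2 (0.92) for Rdh10, Sbds and Drc3 for Rdh11 (both 0.98), Ubox5 (0.99) and Nagk (0.98) for Aldh1a2, Gstm2 (0.91) and Gstm1 (0.90) for Aldh1a1, Col1a2 (0.93) and Myl9 (0.88) for Cyp26b1, Mcm3 and Gpx1 for Rarg (both 0.98), and Usf2 and Gnaq for Rxra (both 0.96). Col1a2, a fibrillar collagen, is 1 of the 10 peritubular and stromal markers summed beside Cyp26b1, and Myl9, a smooth muscle myosin light chain, is not among them. These libraries share groups and makeup, so a correlation here is a description of likeness. Terb2, a telomere attachment protein of meiosis, averaged 186 CPM in KO and 56.1 CPM in WT at 360 h, and 56.4 CPM in KO and 59.9 CPM in WT at 260 h. Dhrs3 itself averaged 126 ± 39.0 CPM in KO and 2.00 ± 1.14 CPM in WT at 360 h (SD, n = 3 each).

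Some other genes of the pathway were called in KO relative to WT at 360 h, where 22.5% of all genes were called (8.93% higher, 13.5% lower). The counts in the lists were close to that share or below it. Of 11 tested genes of retinoid uptake, storage and carriers, 2 rose and 1 fell: Rbp4, the plasma retinol carrier (4.75 ± 0.47, adjusted p = 6.32e-06), Bco2, a carotenoid-cleaving enzyme (2.39 ± 0.45, adjusted p = 0.00129), and Dgat1, which can esterify retinol (-1.14 ± 0.36, adjusted p = 0.0318; edgeR). Bco2 shares exonic bases with a gene on the other strand, and whether the authors counted by strand is unknown from the labels, so its value is uncertain. Rbp4 had 46.3, 47.7 and 36.9 CPM in KO, against 1.01, 1.603 and 2.12 CPM in WT at 360 h, and 50.4, 51.9 and 22.4 CPM in KO, against 17.0, 8.00 and 16.7 CPM in WT at 260 h. For 360 h over 260 h, Rbp4 was at 0.07 ± 0.39 in KO (adjusted p = 0.924) and fell in WT (-3.11 ± 0.44, adjusted p = 9.35e-05; edgeR).

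Of 13 tested further oxidation and breakdown genes, 1 rose and 2 fell in KO relative to WT at 360 h. Adh5, the class III alcohol dehydrogenase, rose (2.87 ± 0.51, adjusted p = 0.000906), and Adh4, an alcohol dehydrogenase that can oxidise retinol (-3.57 ± 0.90, adjusted p = 0.00991), and Dhrs4, a retinal reductase (-2.53 ± 0.70, adjusted p = 0.0161; edgeR), fell. Adh4 had 4.66, 0.307 and 1.72 CPM in KO, against 18.2, 32.5 and 28.1 CPM in WT. Adh4 and Dhrs4 were also called higher at 360 h than at 260 h in WT (5.57 ± 1.05 and 3.72 ± 0.76), and Adh5 lower (-2.77 ± 0.51).

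Of 9 further receptors and cofactors tested, those called in KO relative to WT at 360 h were 2 that rose, the steroid receptor coactivators Ncoa1 (1.91 ± 0.36, adjusted p = 0.00143) and Ncoa2 (1.57 ± 0.24, adjusted p = 0.000239; edgeR). Ncoa1 shares exonic bases with an overlapping gene and is uncertain. Ncoa2 had 114, 100.1 and 109.6 CPM in KO, against 40.3, 32.1 and 36.1 CPM in WT. Of 8 tested genes that respond to retinoic acid, 1 was called, Gm4969 (5.37 ± 0.74, adjusted p = 0.000128), which was also called at 260 h (4.73 ± 0.75, adjusted p = 0.00432; edgeR). Gm4969 had 48.2, 54.4 and 29.4 CPM in KO, against 0.825, 0.0943 and 2.04 CPM in WT at 360 h, and 25.9, 42.3 and 11.5 CPM in KO, against 0.473, 0.889 and 1.38 CPM in WT at 260 h. Stra8, the classic retinoic acid target of meiotic entry, was not called: it had 6.18, 232 and 209.8 CPM in KO, against 71.3, 52.8 and 23.8 CPM in WT at 360 h, and the KO library with 6.18 CPM was the one with no pre-meiotic cell. Gm4969 was the only gene of these lists called by edgeR at 260 h. The medians at 360 h were 0.75, 0.70, 0.02 and 1.49 for the lists in the order given, against 0.03 for all genes.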

How the data were processed

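Per the labels' protocols, single germ cells were picked by mouth pipette and sequenced by a modified Smart-seq2 protocol with 3′ capture. The deposited values are raw UMI counts per gene and cell barcode, made by the authors. Tools listed in the submitters' processing notes are STAR 2.5.3a, featureCounts 1.6.4 and UMI-tools 1.0.0, with build mm10. Neither source says whether counting used strand or how doublets were treated.

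Only the 929 cells of the authors' deposited cell table were used, with its clusters and classes, and no doublet caller was run. The kept cells carry 96 plate barcodes, and all 96 occur in more than 1 library. Counts were summed per library without the 92 ERCC spike-in sequences, which were 3.10% to 11.9% of UMIs. Genes were filtered by filterByExpr (20279 kept) and tested with edgeR 4.0.16 (R 4.3.3; TMM, robust quasi-likelihood F-test, 4 group coefficients, two-sided), adjusted over all genes and called under 0.05. Unscaled CPM use the gene UMIs of the cells named as the total. Alternatives were DESeq2 1.42.0, limma-voom (limma 3.58.1), other scalings and filters, thinned cells, a replicate block and leaving out libraries.

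Depth per cell was 44624 to 565099 gene UMIs. On simulated data for KO over WT at 360 h, 200 genes were changed, 100 by 4-fold and 100 by 2-fold, and 19470 genes passed the filter. Among changed genes that passed it, 24.2% of those changed 4-fold and 1.05% of those changed 2-fold were recovered, with 0% false calls. The simulation changed a far smaller share of genes than the 22.5% called in the data, so its rates do not carry over. A gene that was not called may still differ. No 2 libraries of a group were duplicates (chi-square per degree of freedom at least 11.0). Promoter windows were RefSeq's, and exons GENCODE's.

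The members and gene lists were chosen with earlier results of these data known. Named genes were all members, up to 4 called genes per list and comparison with the smallest p, and the 2 nearest patterns per called member, leaving out predicted genes there. Stra8, Aldh1a7, Vps13d, Insl3, Cyp17a1, Hsd3b1, Star, Des and Amh were named after their values were seen. So were C1qa, C1qb, C1qc, Csf1r, Adgre1, Ptprc, Hba-a1, Hbb-bs, Id4, Uchl1, Dmrt1 and Sall4. One gene that this rule would name is not reported here.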

Additional observations from a re-analysis of the deposited data

Results flagged for a closer look

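The genotype effect differed between 360 h and 260 h for 4 retinoid genes by the interaction term of the edgeR fit, out of the 10 members and the 11, 13, 9 and 8 tested genes of the other lists. Among all genes, 5.08% were called for this difference. The difference was 6.75 on the log2 scale for Dhrs3, 3.17 for Rbp4, 3.21 for Bco2 and 1.31 for Ncoa2. Every KO library had more Rbp4 than every WT library at both times, with a call at 360 h alone. Bco2 had 11.7, 15.5 and 17.6 CPM in KO against 2.38, 2.92 and 3.19 CPM in WT at 360 h. At 260 h it had 4.59, 3.15 and 3.29 CPM in KO against 6.62, 5.87 and 7.13 CPM in WT. The order of its libraries thus turned round, but Bco2 was not called at 260 h. There, 7.34% of all genes had KO below WT without overlap. Its value is uncertain, as it shares exonic bases with another gene. Groups of 3 libraries are too small for a check of single outlying libraries.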

How the results depend on the processing

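Of 50 log2 fold changes of members, 15 were called, and 9 of these kept direction and call in all alternatives. With ERCC scaling 3 members were called for KO over WT at 360 h. For 360 h over 260 h in KO, 5 were called with DESeq2 and with limma-voom, and 2 to 5 with 1 library left out (5 without KO library 3 at 360 h). For the difference of the genotype effects, 5 were called with DESeq2, 2 with no low count filter, without pre-meiotic cells, with thinned cells or with WT library 3 alone at 260 h, and 1 to 2 with 1 library left out. WT library 3 alone and single cell classes alone were chosen after seeing the data, as alternatives.

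Calls gained by leaving out 1 library were, over time in KO, Rara (-2.12) and Cyp26b1 (-3.34) without KO library 3 at 360 h, and, over time in WT, Rdh10 (-1.27) without WT library 1 and Dhrs3 (-2.04) without WT library 3 at 260 h. For the difference, they were Rdh11 without KO library 1 (-1.82) or WT library 3 (-1.61) at 360 h, Rarg without WT library 1 at 360 h (3.20), Rdh10 without WT library 1 at 260 h (2.34) and Aldh1a1 without WT library 3 at 260 h (2.73). Rarg over time in KO was called with DESeq2 (-1.37), limma-voom (-1.48) and only the libraries compared (-1.40), and Dhrs3 over time in WT with no filter (-1.39).

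Reversed values were mostly near 0 and not called. Cyp26b1 for KO over WT at 260 h was -0.0389 with DESeq2 size factors, -0.0304 with ERCC scaling, -0.0478 with DESeq2, -0.0675 with only the libraries compared, -0.11 without pre-meiotic cells, -0.11 with thinned cells, -0.21 in early pachytene cells alone, and -0.53 to 0.90 with 1 library left out. Its difference of the genotype effects was -0.29 with limma-voom and -0.67 to 1.68 with 1 library left out, and its KO over WT at 360 h -0.68 to 1.52. For KO over WT at 260 h, Rdh10 was -0.12 with ERCC scaling and -0.16 to 0.50 with 1 library left out, Dhrs3 0.0392 with limma-voom and -1.69 to 0.13 with 1 left out, Aldh1a1 0.0922 with limma-voom, and Rxrb -0.43 to 0.14 with 1 left out. Aldh1a2 for KO over WT at 360 h was -0.40 with ERCC scaling and -0.12 to 0.28 with 1 left out. Without pre-meiotic cells, Rara in WT over time was 0.48 and Rxra in KO over time 0.31. In pre-meiotic cells alone at 260 h, KO over WT was -0.0070 for Rara, -0.00735 for Rxra and 0.15 for Rxrb. The Rxrb difference of the genotype effects was 0.0173 with thinned cells. With WT library 3 alone at 260 h, KO over WT at 260 h was 1.76 for Dhrs3, -0.13 for Rdh10, 1.65 for Aldh1a1, 0.16 for Rarg and -0.28 for Rxra. There, the time change in WT was 1.12 for Dhrs3 and 0.11 for Aldh1a1, and the difference of the genotype effects was -0.29 for Aldh1a1, -1.39 for Cyp26b1 and 0.36 for Rxrb. The cause of these reversals was not tested.

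Counts over all genes moved more. For KO over WT at 260 h, 383 genes were called, against 246 with ERCC scaling (31 higher and 215 lower, against 118 and 265), 687 with no filter, 953 with DESeq2, 176 with limma-voom, 181 with only the libraries compared, 600 without pre-meiotic cells, 122 with WT library 3 alone and 4 in pre-meiotic cells alone. In early pachytene cells alone 435 were called, and the split turned to 271 higher and 164 lower. For the difference of the genotype effects, 1030 were called, against 408 with ERCC scaling (75 higher and 333 lower, against 467 and 563), 1581 with no filter, 2174 with DESeq2 and 636 with WT library 3 alone. Over time, ERCC scaling gave 2084 higher and 483 lower in KO, against 2693 and 2066, and 4432 higher and 1683 lower in WT, against 4244 and 3838, and WT library 3 alone gave 4989 calls in WT against 8082. Leaving out 1 library moved counts by over 1.5 times as follows. KO over WT at 260 h had 577 calls without WT library 1, 115 without WT library 2, 158 without KO library 1 and 184 without KO library 3. KO over WT at 360 h had 2816 without KO library 2 and 2600 without KO library 3, against 4554. Time in KO had 3090 without KO library 1 at 260 h and 2764 without KO library 1 at 360 h. The difference had 638 without WT library 2 and 594 without KO library 2 at 260 h, and 615, 501 and 482 without WT library 2, KO library 2 and KO library 3 at 360 h.

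Libraries with the same replicate number did not deviate together (correlations of -0.20 to 0.22), so the number was not taken as a pairing. With the replicate number as a block, 0 members were called for KO over WT at 260 h, 5 at 360 h, 3 over time in KO, 5 in WT and 1 for the difference. The call lost was Cyp26b1 in WT over time (-2.55, adjusted p = 0.080). Genes with few UMIs, such as Rarg with 9 to 27 per WT library at 360 h, are limited by depth.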

Other observations

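The feature table listed 7 other genes within 250 kb of Dhrs3, of which 1, Vps13d, was tested. Its KO over WT log2 fold change at 360 h was 0.70 ± 0.28 (adjusted p = 0.0875, edgeR), against 6.00 ± 0.82 for Dhrs3. In WT, Vps13d was lower at 360 h than at 260 h (-0.98 ± 0.28, adjusted p = 0.0130, edgeR).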
